A study of Mus musculus with 2 samples.

Results

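The 8 receptor genes described here lie on mouse chromosome 6 and were followed through single T cells of the ileum: the Ly49 genes Klra1, Klra3, Klra5, Klra6 and Klra7, the CD94-NKG2 genes Klrd1 and Klrc1, and Klre1. They were chosen by symbol, make up 8 of the 55357 genes in the count tables, and all 8 were found. Transcriptomes came from 2 droplet libraries of T cells, 1 labelled SAP and 1 labelled Control, with 1 library in each group. In the study, dendritic cells carrying phages of either SAP or healthy mice met T cells from the gut of GF mice in culture, and T cells touched by a dendritic cell were marked on their surface by the FucoID enzyme reaction. The labels name the libraries only SAP and Control and do not say whether the sequenced cells are the marked ones, which strain the mice were, or how many animals gave cells. The design text gives dendritic cells and T cells of GF mice for both arms and names the source of the phages as the difference, but no label ties the word Control to the phages of healthy mice.

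Ly49 proteins are lectin-like receptors on natural killer cells and some T cells of mice, most of which read classical MHC class I molecules on neighbouring cells and dampen killing through a tyrosine phosphatase. Each cell usually switches on only a few genes of the family, so that cells differ in the set they carry. CD94, from Klrd1, pairs with NKG2A, from Klrc1, to form an inhibitory receptor for the nonclassical molecule Qa-1, while the Klre1 product pairs with partners of the Klri family. In the gut epithelium such receptors are known from resident T cells, among them gamma-delta T cells and T cells with the CD8 alpha chain but no beta chain.

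The 8 genes lie in 1 stretch of chromosome 6 in the order Klre1, Klrd1, Klrc1, Klra5, Klra6, Klra7, Klra3 and Klra1 in RefSeq's GRCm38.p6 annotation. Promoter windows, from 250 bases before to 50 bases after the start of the gene, were found in the RefSeq table of that build for 7 of the 8 genes. Of 4 motifs searched on both strands, CTTTGAT, the core bound by TCF factors, was in 3.73% of 32851 promoters of the same length, TGTGGT, a RUNX core, in 16.8%, the T-box letters AGGTGTGA in 1.28% and the AP-1 letters TGACTCA in 5.20%. The windows of Klra5, Klra6, Klra7 and Klra1 are shown because these 4 genes were found together in single cells more often than cell depth accounted for. Capitals mark CTTTGAT in Klra6 and in the second window of Klra7 and TGTGGT in Klra1, and the Klra5 window held none of the 4 motifs. All 4 are on the minus strand, at chr6:129913175-129913474 for Klra5, chr6:130026905-130027204 for Klra6, chr6:130233273-130233572 for Klra7 and chr6:130386825-130387124 for Klra1.
Klra5: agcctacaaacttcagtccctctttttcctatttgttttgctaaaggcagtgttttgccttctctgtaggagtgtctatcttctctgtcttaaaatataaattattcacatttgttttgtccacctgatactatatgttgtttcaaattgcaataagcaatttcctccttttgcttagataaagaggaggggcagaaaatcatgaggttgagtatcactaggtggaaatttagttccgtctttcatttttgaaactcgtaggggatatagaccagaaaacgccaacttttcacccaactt
Klra6: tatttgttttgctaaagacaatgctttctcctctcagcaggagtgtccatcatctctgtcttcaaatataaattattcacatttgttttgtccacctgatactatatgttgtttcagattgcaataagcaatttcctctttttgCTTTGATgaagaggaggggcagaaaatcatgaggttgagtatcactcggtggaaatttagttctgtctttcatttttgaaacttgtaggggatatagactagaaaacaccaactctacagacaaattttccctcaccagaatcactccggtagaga
Klra7: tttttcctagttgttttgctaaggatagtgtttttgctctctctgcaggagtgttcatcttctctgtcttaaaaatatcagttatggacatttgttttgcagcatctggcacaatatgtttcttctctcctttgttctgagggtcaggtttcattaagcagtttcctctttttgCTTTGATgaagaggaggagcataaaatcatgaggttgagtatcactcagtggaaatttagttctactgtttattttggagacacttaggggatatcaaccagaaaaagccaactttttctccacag
Klra1: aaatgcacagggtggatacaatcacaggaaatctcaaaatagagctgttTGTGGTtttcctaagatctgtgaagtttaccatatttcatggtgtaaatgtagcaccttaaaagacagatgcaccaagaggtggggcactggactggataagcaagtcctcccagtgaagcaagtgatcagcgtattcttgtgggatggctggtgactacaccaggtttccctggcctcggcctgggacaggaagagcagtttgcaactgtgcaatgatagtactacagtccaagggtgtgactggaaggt
The Klra5 and Klra6 windows aligned at 76.0% of positions, Klra5 and the second Klra7 window at 71.3%, and Klra6 and the second Klra7 window at 69.4%. The first Klra7 window, not shown, held none of the 4 motifs and aligned with Klra5 at 48.2% and with Klra6 at 51.1%. The Klra1 window aligned with the second of Klra7 at 47.6% and with that of Klra3, also a Ly49 gene, at 49.3%. Of the other windows not shown, those of Klrc1 and the first of Klre1 held TGTGGT, and those of Klra3 and the second of Klre1 held no motif. No windows from outside the 8 receptor genes were aligned, so there is no value of unrelated windows beside these. A match is a match of letters only and says nothing of binding.

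The SAP library gave 4826 kept cells with 17955893 UMIs and a median of 3373.5 UMIs per cell, and the Control library gave 5408 kept cells with 17848471 UMIs and a median of 3094.5. A UMI is a tag that counts 1 captured RNA molecule. At least 1 UMI of a CD3 chain was found in 96.5% of SAP cells and 97.3% of Control cells, and all 9 T cell markers were detected in both. The libraries shared 6 barcodes, 5 of them among kept cells. Cells with a UMI of Folr1, a folate receptor gene that is not a T cell marker, numbered 93 in SAP and 43 in Control and held 8.82% and 3.53% of the UMIs of SAP and Control. Over all kept cells 5.09% of 5718 genes with enough UMIs were at least 1.5-fold higher in SAP and 0.14% lower, and without the Folr1 cells the shares were 0.182% and 0.128% of 5480 genes. Values of SAP over Control are therefore given with these cells. For the receptor genes over all gates they are also given without them where the direction turned or the interval newly included or left out 1. There is 1 library per group, so no difference has a replicate check, no test was run, and all intervals (95%, exact) cover counting error only. Intervals of levels and ratios count each UMI as independent and are too narrow where the UMIs of a gene sat in few cells.

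Klrd1, the CD94 chain, was the abundant member: 776 CPM (UMIs scaled to 1000000 per library; interval 763 to 789) in SAP and 810 (797 to 823) in Control, with at least 1 UMI in 58.7% of SAP cells and 60.6% of Control cells. Its partner gene Klrc1, for NKG2A, was near the bottom of the range at 9.36 CPM in SAP and 8.68 CPM in Control, in 85 SAP cells and 86 Control cells. Klre1 stood at 75.1 CPM in SAP and 82.5 CPM in Control and was found in 13.4% of SAP cells and 13.8% of Control cells. UMIs counted for CD94 were thus far more widespread in both libraries than those counted for the NKG2A chain it is known to pair with. Klrc2, with which Klrc1 shares much of its sequence, stood at 14.1 CPM in SAP and 12.3 CPM in Control, so the Klrc1 level is uncertain. These are levels per library and are not corrected for transcript length, but the 3' kit counts 1 end of each molecule.

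Among the Ly49 genes the order of levels was Klra5, Klra7, Klra6, then Klra3 and Klra1. Klra5, for Ly49E, had 58.6 CPM in SAP and 61.6 CPM in Control and was found in 284 SAP cells (5.88%) and 355 Control cells (6.56%). Klra7, for Ly49G, had 30.1 CPM (27.6 to 32.7) in SAP and 25.3 CPM (22.99 to 27.7) in Control, from 132 SAP cells and 122 Control cells. Klra6, for Ly49F, was found in more cells than Klra7, 185 in SAP and 165 in Control, but at 19.5 CPM in SAP and 16.8 CPM in Control. Klra3, for Ly49C, and Klra1, for Ly49A, were lowest: Klra3 had 9.08 CPM in SAP and 13.2 CPM in Control, and Klra1 had 7.46 CPM in SAP and 7.84 CPM in Control. In SAP the counting intervals of Klra3 (7.74 to 10.6) and Klra1 (6.25 to 8.84) overlapped, whereas in Control those of Klra3 (11.5 to 15.0) and Klra1 (6.60 to 9.26) did not. Together, any of the 5 Ly49 genes was found in 591 SAP cells (12.2%, 11.3 to 13.2) and 655 Control cells (12.1%, 11.3 to 13.0).

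**Figure D1:**
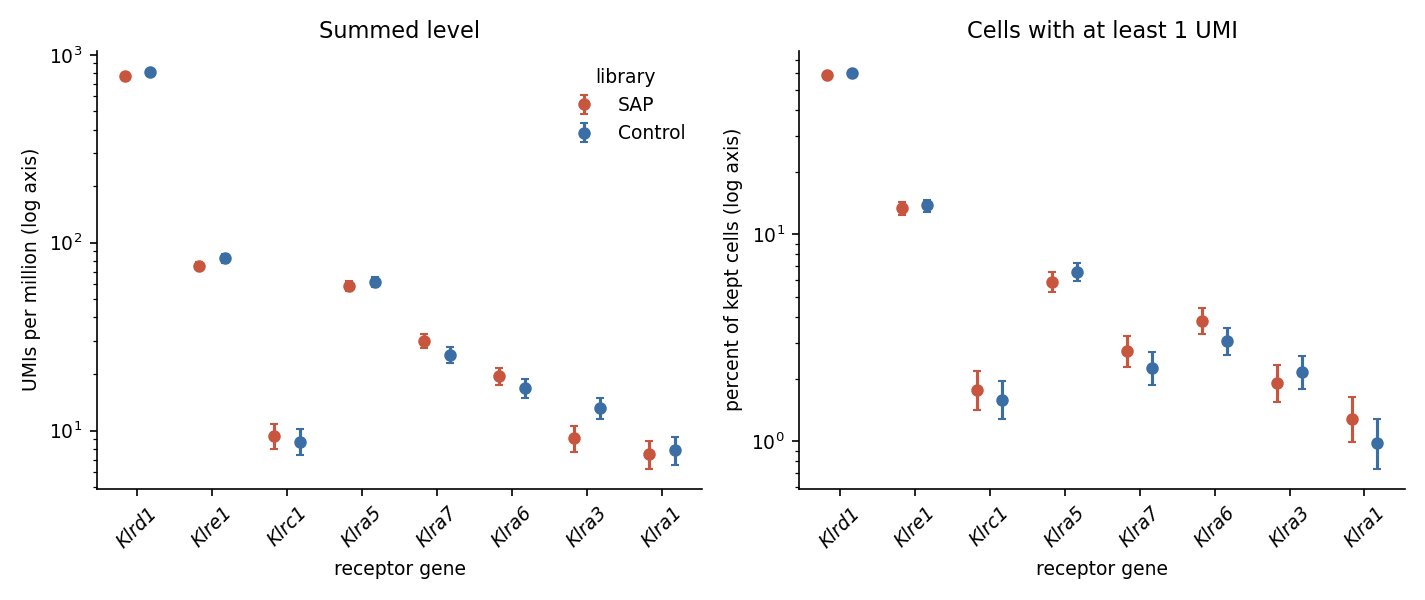
Level (left, CPM, log axis) and share of kept cells with at least 1 UMI (right, percent, log axis) of the 8 receptor genes in the SAP and the Control library; points are the 1 library of each group and bars are exact 95% counting intervals. Klrd1 stands at 776 CPM in SAP and 810 CPM in Control, and Klra1 at 7.46 CPM in SAP and 7.84 CPM in Control.

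Shares at equal depth gave the same picture. Cells were drawn down at random to 2000 UMIs apiece; 1177 SAP cells and 1278 Control cells were too shallow for this and were set aside. A Ly49 UMI was then left in 11.6% of SAP cells and 11.1% of Control cells. Klrd1 was in 55.5% of SAP cells and 57.5% of Control cells, Klra5 in 5.37% of SAP cells and 5.91% of Control cells, and Klra7 in 2.58% of SAP cells and 2.11% of Control cells.

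UMIs of the Ly49 genes were in fewer cells than an even spread would give, to an extent that differed by gene. Had the UMIs of Klra7 been spread over cells in proportion to depth, 490 SAP cells and 423 Control cells would have held one, and the observed numbers were 0.269 times that in SAP and 0.288 times in Control. Klra5 had a value of 0.320 in SAP and 0.372 in Control, Klra6 of 0.564 in SAP and 0.576 in Control, and Klrd1 of 0.691 in SAP and 0.711 in Control. The median over 5718 genes was 0.935 in SAP and 0.933 in Control, and the 5th percentile was 0.487 in SAP and 0.559 in Control. Klra5 and Klra7 lay below that percentile in both libraries, as did Klra1 at 0.475 in SAP and 0.386 in Control. Klra6 lay above it in both, and Klra3, at 0.583 in SAP and 0.515 in Control, only in SAP. A cell with Klra7 held 4.09 Klra7 UMIs on average in SAP and 3.70 in Control, and the highest cell held 22 in SAP and 13 in Control, whereas a cell with Klra6 held 1.89 in SAP and 1.81 in Control.

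Some of these genes have near copies between which a counter cannot divide every read. In the GENCODE M21 transcripts, the last 500 bases of Klra3 shared 52.8% of their 31-base words with Klra9, those of Klra7 shared 46.6% with Klra13-ps and those of Klrc1 shared 68.7% with Klrc2, so the values of Klra3, Klra7 and Klrc1 are uncertain to that extent. Klrd1 and Klre1 shared none with another gene of the family. Between Klra1 and Klra7 0.79% of the words of the whole Klra1 transcript were shared and none in its last 500 bases. Klra9 itself had 20 UMIs in SAP and 19 in Control, and Klra13-ps had 9 in SAP and 5 in Control. Klrc2 had 253 UMIs in SAP and 219 in Control, more than the 168 in SAP and 155 in Control of Klrc1.

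Of the 4 members with enough UMIs for the count (Klra5, Klra7, Klrd1 and Klre1; at least 20 CPM in 1 library and 50 UMIs over both), 0 were at least 1.5-fold higher in SAP and 0 lower, beside 5.09% and 0.14% of all such genes. The summed Ly49 level was 125 CPM in SAP and 125 CPM in Control, and the interval of their ratio was 0.943 to 1.06. Klra7 had a ratio of 1.19 (1.05 to 1.35), Klra6 of 1.16 (0.994 to 1.36) and Klra5 of 0.952 (0.874 to 1.04). By share of cells the intervals overlapped: Klra7 was in 2.74% (2.29 to 3.24) of SAP cells and 2.26% (1.88 to 2.69) of Control cells. Klra6 was in 3.83% (3.31 to 4.41) of SAP cells and 3.05% (2.61 to 3.54) of Control cells. Scaling by TMM factors gave 1.11 for Klra7 and 1.08 for Klra6. The TMM factor, 1.08, and the median-of-ratios factor, 1.06, both lie above the lower limit of the Klra7 interval. On either scale that interval therefore includes 1. Without the Folr1 cells Klra7 was at 1.28 (1.12 to 1.45) and Klra6 at 1.22 (1.04 to 1.43), so the Klra6 interval then left out 1. Klra3 had 163 UMIs in SAP and 235 in Control, a ratio of 0.689 (0.561 to 0.846), from 92 SAP cells and 117 Control cells. Its share of cells was 1.91% (1.54 to 2.33) in SAP and 2.16% (1.79 to 2.59) in Control, with intervals that overlapped. Klre1 had a ratio of 0.910 (0.844 to 0.980), and of 0.958 (0.889 to 1.03) without the Folr1 cells, an interval that includes 1. Klrc1 had a ratio of 1.08 (0.861 to 1.35) and Klra1 0.951 (0.745 to 1.21). Klrd1 had 0.958 (0.936 to 0.980), and 1.01 (0.983 to 1.03) without the Folr1 cells, so its direction turned when they were left out. On the log2 scale the median ratio of all 5718 genes was 0.04, and that of Klra7 was 0.25.

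The cells were gated by UMIs of 4 genes into groups that exclude each other. The Cd8a only gate, with Cd8a and no UMI of Cd8b1, Trdc or Cd4, held 1221 SAP cells and 1465 Control cells. The Trdc gate, with the constant gene of the delta chain, held 2029 SAP cells and 2231 Control cells. The Cd8b1 gate, with the CD8 beta chain, held 542 SAP cells and 545 Control cells, the Cd4 gate held 167 SAP cells and 185 Control cells, and 867 SAP cells and 982 Control cells were in none. The last had no UMI of the 4 genes or had UMIs of genes whose gates exclude each other. Cd8a was found in 12.3% of them in SAP and 11.0% in Control, and Trdc in 7.15% in SAP and 7.74% in Control. A cell without a UMI of a gate gene may still express it. In the Cd8a only gate, Trac, of the alpha chain, was found in 77.4% of SAP cells and 76.9% of Control cells, and Trgc1, a gamma chain gene, in 29.5% of SAP cells and 28.6% of Control cells. In the Trdc gate Trac was found in 50.7% of SAP cells and 51.8% of Control cells. That gate did not leave out cells with Cd8a, which was found in 73.6% of its SAP cells and 70.2% of its Control cells. The gates are therefore groups by detected RNA and not pure lineages.

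Ly49 RNA was found most often in the Cd8a only gate. A Ly49 UMI was present in 25.6% (23.2 to 28.2) of its SAP cells and 23.5% (21.4 to 25.8) of its Control cells. The share was 9.12% in SAP and 10.0% in Control in the Trdc gate, 1.29% in SAP and 1.83% in Control in the Cd8b1 gate, and 1 cell in each library in the Cd4 gate. Cells outside the 4 gates had a share of 9.80% (7.91 to 12.0) in SAP and 7.64% (6.05 to 9.48) in Control, near that of the Trdc gate, at a lower median depth of 2356 UMIs in SAP and 2424 in Control. In level, the Ly49 sum was 285 CPM in SAP and 280 CPM in Control in the Cd8a only gate, against 81.8 CPM in SAP and 81.3 CPM in Control in the Trdc gate and 95.8 CPM in SAP and 81.5 CPM in Control in cells outside the gates. The Cd8a only gate over the Trdc gate was 3.48 (3.16 to 3.83) in SAP and 3.45 (3.13 to 3.80) in Control, and gates that did not exclude each other gave 1.85 in SAP and 1.97 in Control. Median depth did not follow that order: it was 3419 UMIs in SAP and 3118 in Control in the Cd8a only gate and 3614 in SAP and 3327 in Control in the Trdc gate.

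Of 5491 genes with enough UMIs (at least 20 CPM in 1 of the gates compared and 50 UMIs over both), 2.37% were at least 1.5-fold higher in the Cd8a only gate than in the Trdc gate in both libraries and 0.291% were lower. Klra6 and Klra7 passed that minimum only through the gate where they were high, and Klra3 and Klrc1 did not pass it, so the members are given by their values and not by a count. Klra7 had 81.8 CPM in SAP and 65.9 CPM in Control in the Cd8a only gate and 7.09 CPM in SAP and 6.61 CPM in Control in the Trdc gate, 11.5-fold (8.68 to 15.6) in SAP and 9.98-fold (7.40 to 13.7) in Control. Klra6 had a ratio of 7.85 (5.81 to 10.8) in SAP and 8.31 (5.93 to 11.9) in Control. Klra5 was the Ly49 gene with the least uneven split of these, at 130 CPM in SAP and 138 CPM in Control in the Cd8a only gate and 49.5 CPM in SAP and 46.8 CPM in Control in the Trdc gate. Klre1 followed Klra5, with a ratio of 2.63 in SAP and 2.33 in Control. Klrd1 was level across these gates: 1040 CPM in SAP and 950 CPM in Control in the Cd8a only gate, and 1009 CPM in SAP and 1083 CPM in Control in the Trdc gate. Its ratio between these gates, 1.03 in SAP and 0.878 in Control, was 0.961 in SAP when the gates did not exclude each other.

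Klra3 and Klrc1 had the opposite split, on few UMIs. Klra3 had 5.69 CPM in SAP and 12.0 CPM in Control in the Cd8a only gate and 15.5 CPM in SAP and 20.7 CPM in Control in the Trdc gate, a ratio of 0.368 (0.231 to 0.566) in SAP and 0.580 (0.422 to 0.788) in Control. Of cells with Klra3, 67.4% in SAP and 66.7% in Control were in the Trdc gate, against 12.9% in SAP and 12.3% in Control of cells with Klra7. Klrc1 had a ratio of 0.270 (0.152 to 0.453) in SAP and 0.653 in Control, where the interval reaches past 1. Klra1 went with Klra6 and Klra7, with 63 UMIs in SAP and 98 in Control in the Cd8a only gate and 23 in SAP and 14 in Control in the Trdc gate.

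**Figure D2:**
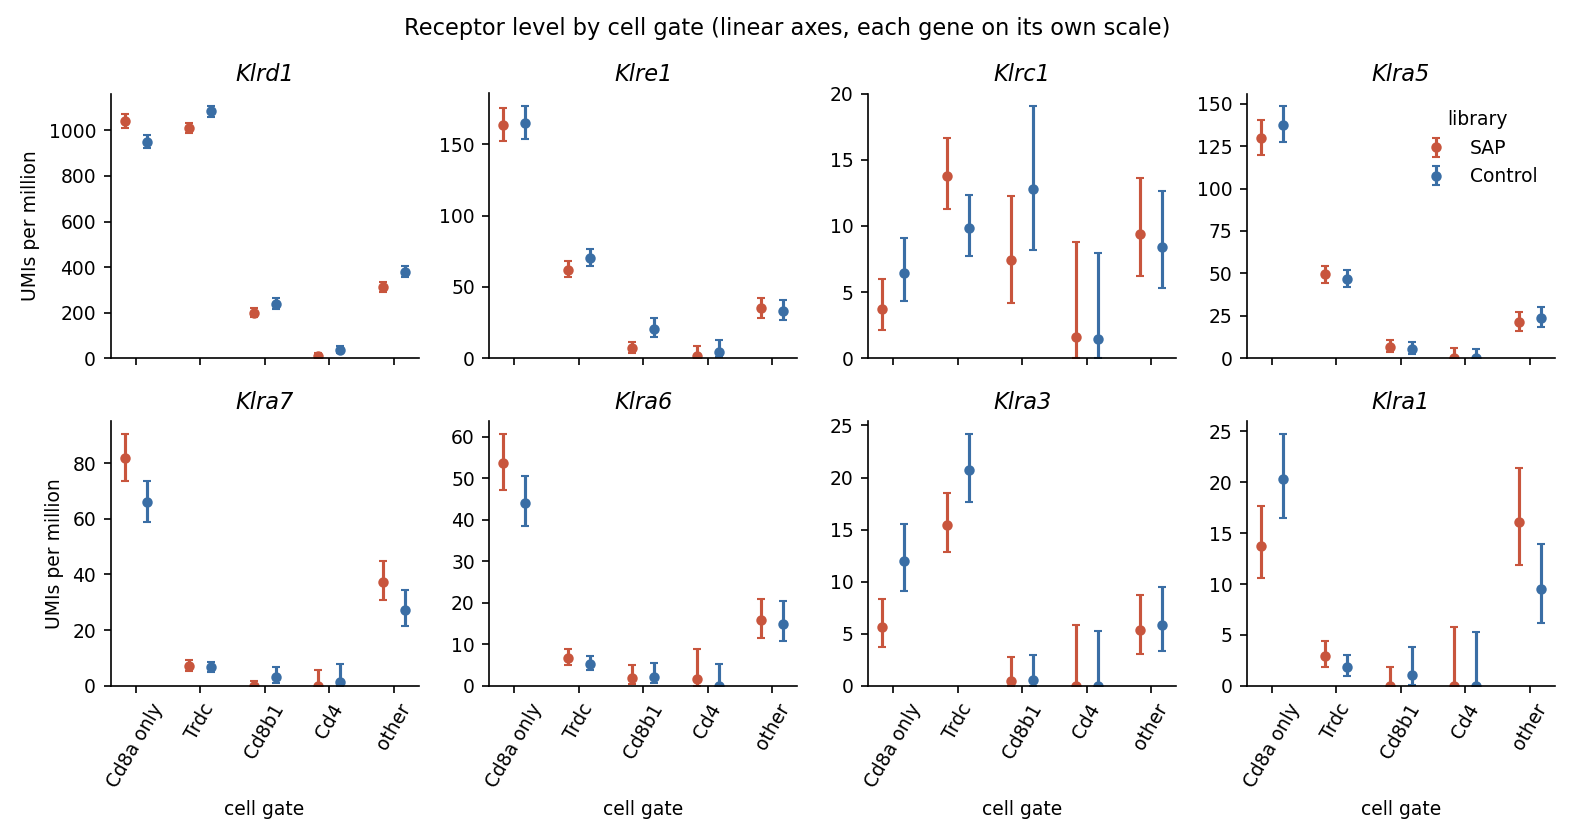
Level in CPM of each of the 8 receptor genes in the 5 cell gates, SAP and Control library, on linear axes that differ between genes; bars are exact 95% counting intervals. Klra7, Klra6, Klra5 and Klre1 stand highest in the Cd8a only gate, Klra3 in the Trdc gate, and Klrd1 at about 1000 CPM in both.

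Cells with the CD8 beta chain held less Ly49, Klrd1 and Klre1 RNA than the Cd8a only gate, but not less Klrc1 RNA. Klrc1 had 7.45 CPM in SAP and 12.8 CPM in Control in the Cd8b1 gate, 3.72 CPM in SAP and 6.43 CPM in Control in the Cd8a only gate, and 13.8 CPM in SAP and 9.85 CPM in Control in the Trdc gate. Its ratio of the Cd8a only over the Cd8b1 gate was 0.499 (0.235 to 1.07) in SAP and 0.502 (0.285 to 0.894) in Control, on 15 UMIs in SAP and 24 in Control in the Cd8b1 gate. Of all genes with enough UMIs, 8.95% of 5474 were at least 1.5-fold higher in the Cd8a only gate than in the Cd8b1 gate in both libraries and 2.05% lower, and 6.78% of 5401 were higher in the Trdc gate than in the Cd8b1 gate and 1.87% lower. The Ly49 members passed the minimum only through the gate where they were high, so no count of members is read against these shares. Klra5 was at 6.46 CPM in SAP and 5.33 CPM in Control in the Cd8b1 gate, from 5 SAP cells and 4 Control cells. Klra7 had 0 UMIs in the SAP cells of that gate, a count that allows up to 1.49 CPM, and 6 in its Control cells. Klrd1 was still present at 200 CPM in SAP and 240 CPM in Control, in 26.2% of SAP cells and 33.8% of Control cells. Klre1 had 14 UMIs in 9 SAP cells and 39 UMIs in 30 Control cells of the Cd8b1 gate, a SAP over Control ratio of 0.334 (0.168 to 0.629). Without the cell with most Klre1 UMIs its level there was 3.98 CPM in SAP and 19.2 CPM in Control.

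The Cd4 gate had the lowest values and was used for comparison, although free RNA and expression in its cells were not told apart. Klrd1 was found in 4.19% (1.70 to 8.45) of its SAP cells and 6.49% (3.40 to 11.1) of its Control cells, at a median depth of 3451 UMIs in SAP and 3375 in Control, so the Cd8b1 gate lay above it. The highest Cd4 gate cell held 1 Klrd1 UMI in SAP and 10 in Control. Klra1, Klra3 and Klra5 had 0 UMIs in the Cd4 gate of both libraries. Cells with Folr1 and no CD3 chain, 23 in SAP and 16 in Control, had a Ly49 UMI in 0 SAP cells and 1 Control cell and a Klrd1 UMI in 5 SAP cells and 1 Control cell. The Ly49 share of the Cd8b1 gate, 1.29% in SAP and 1.83% in Control, overlapped that of the Cd4 gate, 0.599% (0.0152 to 3.29) in SAP and 0.541% (0.0137 to 2.97) in Control. In level the Cd8b1 gate had 8.94 CPM of Ly49 RNA in SAP and 12.3 CPM in Control, against 1.58 CPM in SAP and 1.43 CPM in Control in the Cd4 gate, and its highest cell held 6 Klra5 UMIs in each library. The part of free RNA in the Cd8b1 values was not tested.

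Most cells with Ly49 RNA held 1 gene of the 5, but more cells held several than depth accounted for. In SAP 465 cells held 1 Ly49 gene, 92 held 2, 30 held 3 and 4 held 4. In Control 534 cells held 1, 88 held 2, 30 held 3 and 3 held 4. No cell of either library held all 5. Cells were sorted into 10 depth strata, and the number expected if the genes were independent within a stratum was 49.4 cells with 2 or more in SAP and 47.8 in Control. The observed 126 SAP cells were 2.55 times that (2.12 to 3.04) and the observed 121 Control cells 2.53 times (2.10 to 3.02), and for 3 or more genes the values were 17.9 (12.4 to 25.0) in SAP and 20.9 (14.4 to 29.4) in Control. Cells with exactly 1 gene were fewer than expected, 0.711 times in SAP and 0.747 times in Control. Expected values describe independence given depth, depth still varies within a stratum, and their difference from the observed was not tested.

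**Figure D3:**
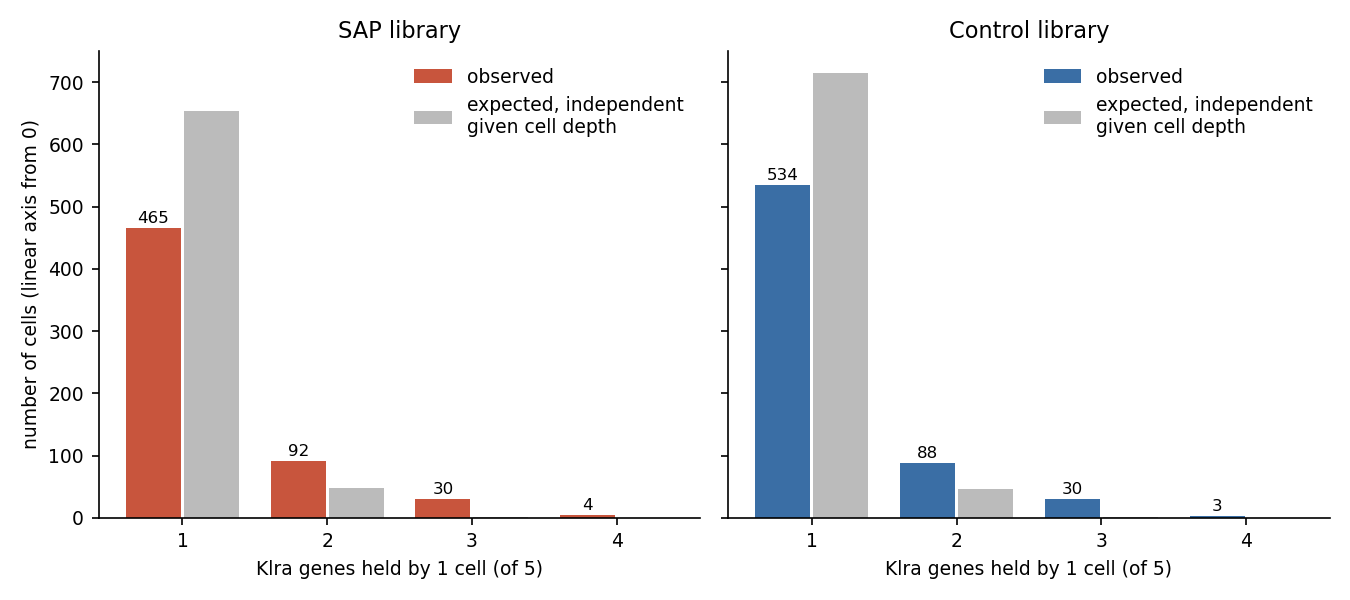
Number of cells (linear axis from 0) that held 1, 2, 3 or 4 of the 5 Klra genes in the SAP and the Control library, observed (coloured, numbers printed) and expected if the genes were independent given cell depth (grey). In both libraries cells with 1 gene are below the grey bar and cells with 2 or more are above it.

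Over all 8 receptors, 296 SAP cells (6.13%) and 312 Control cells (5.77%) held 3 or more, 2.45 times the expected number (2.18 to 2.74) in SAP and 2.43 times (2.17 to 2.71) in Control. For 2 or more Ly49 genes the values differed by gate: they were below those over all cells in the Cd8a only and Trdc gates and above them in cells outside the gates. The expectation by gate used fewer than the 10 depth strata taken over all cells, so the values are not fully alike. Within the Cd8a only gate 76 SAP cells and 87 Control cells held 2 or more Ly49 genes, 1.46 times the number expected in that gate in SAP and 1.61 times in Control. Within the Trdc gate there were 19 SAP cells and 16 Control cells, 2.04 times the expected number in SAP and 1.88 times in Control. Outside the gates there were 31 SAP cells and 17 Control cells, 4.04 times the expected number in SAP and 4.06 times in Control. Of Ly49 cells, 24.3% in SAP and 25.2% in Control held 2 or more in the Cd8a only gate, against 10.3% in SAP and 7.14% in Control in the Trdc gate and 36.5% in SAP and 22.7% in Control outside the gates.

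Single genes were the commonest sets. Klra5 alone was held by 222 SAP cells and 285 Control cells, Klra6 alone by 110 SAP cells and 96 Control cells, and Klra3 alone by 69 SAP cells and 97 Control cells. The commonest pair with no further Ly49 gene was Klra6 with Klra7, in 23 SAP cells and 26 Control cells. Klra1 alone was rare, with 17 SAP cells and 19 Control cells of the 62 SAP cells and 53 Control cells that held it.

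Of the 28 pairs of receptors, 15 were found together at 1.5 times the number expected from depth or more in both libraries, and for 11 the whole counting interval lay above 1.5 in both. Depth varies within a stratum, which by itself puts values of independent genes somewhat above 1, and pairs with few expected cells scatter further, so values near 1.5 are not read as co-occurrence. Among pairs with at least 5 expected cells in each library, the highest was Klra5 with Klra7, in 33 SAP cells against 9.80 expected (3.37 times, 2.32 to 4.73) and 41 Control cells (4.56 times, 3.27 to 6.18). The next 4 were Klre1 with a Ly49 gene. Klre1 was found with Klra7 at 3.36 times in SAP and 3.60 times in Control, with Klra6 at 3.07 times in SAP and 3.40 times in Control, with Klra1 at 2.87 times in SAP and 3.33 times in Control and with Klra5 at 3.13 times in SAP and 2.77 times in Control. With the expectation taken within the gates, Klra5 with Klra7 was at 2.17 times in SAP and 2.80 times in Control and Klra7 with Klre1 at 2.33 times in SAP and 2.58 times in Control, so their order turned in SAP. The other 3 pairs with Klre1 were then at 1.98 to 2.33 times. Of cells with Klra7, 56.1% in SAP and 60.7% in Control also held Klre1. Against each member in turn, the share of all genes found with it at 1.5 times or more in both libraries was 0.929% for Klra1, where 1 of 2 measured members passed, 1.01% for Klra3 (1 of 3), 1.69% for Klra5 (3 of 4), 0.9% for Klra6 (2 of 3) and 0.559% for Klra7 (2 of 3). It was 0.661% for Klre1 (3 of 4), 0.803% for Klrc1 (0 of 3) and 0.0% for Klrd1 (0 of 4). A member was measured where 10 cells or more were expected in each library.

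Larger values came from rarer genes, and these pairs were chosen after their values were seen. Klra1 and Klra7 were together in 32 SAP cells where 2.13 were expected (15.0 times, 10.3 to 21.2) and in 28 Control cells where 1.49 were expected (18.8 times, 12.5 to 27.1). Thus 51.6% of SAP cells and 52.8% of Control cells with Klra1 held Klra7. Klra6 and Klra7 were together in 46 SAP cells and 46 Control cells, 7.22 times the expected number in SAP and 9.96 times in Control. Klra1 and Klra6 were together in 20 SAP cells and 11 Control cells, 6.94 times the expected number in SAP and 5.61 times in Control. With the expectation taken within the gates, the value of Klra1 with Klra7 was 7.58 in SAP and 9.45 in Control, and that of Klra6 with Klra7 was 3.69 in SAP and 5.05 in Control. That of Klra1 with Klra6 was then 3.46 in SAP and 2.73 in Control. Klrc1 was with Klra1 in 11 SAP cells and 7 Control cells, 7.72 times the expected number in SAP and 7.45 times in Control, and with Klra7 in 12 SAP cells and 11 Control cells, 4.47 times in SAP and 5.08 times in Control. The transcripts of Klra1 and Klra7 align at 54.3%, those of Klra6 and Klra7 at 74.0% and those of Klra5 and Klra6 at 79.6%. Klra5 with Klra6 was a pair at 2.18 times in SAP and 2.39 times in Control. With the expectation within the gates it was at 1.27 times in SAP and 1.41 times in Control. The part of transcript likeness in these values was not tested.

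Klra3 was with Klra5 in 9 SAP cells against 6.36 expected (1.41 times) and in 13 Control cells against 8.88 expected (1.46 times). Both values lay above expectation, with intervals that include 1. The lowest pair was Klra5 with Klrc1, in 2 SAP cells, 0.354 times the expected number (up to 1.28), and 6 Control cells, 0.999 times the expected number. Klrd1 with Klrc1, the chains of the CD94-NKG2A receptor, were together in 69 SAP cells (1.27 times, 0.985 to 1.60) and 68 Control cells (1.23 times, 0.955 to 1.56), and 81.2% of SAP cells and 79.1% of Control cells with Klrc1 also held Klrd1. Klrd1 was with Klra7 in 111 SAP cells and 104 Control cells, 1.30 times the expected number in both. Over its 7 pairs Klrd1 ran from 1.23 to 1.46 times. Because Klrd1 was found in most cells these values could not pass 1.49 to 1.58, the value at which every cell with the other gene also holds Klrd1, and they cannot be ranked against pairs of rarer genes.

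**Figure D4:**
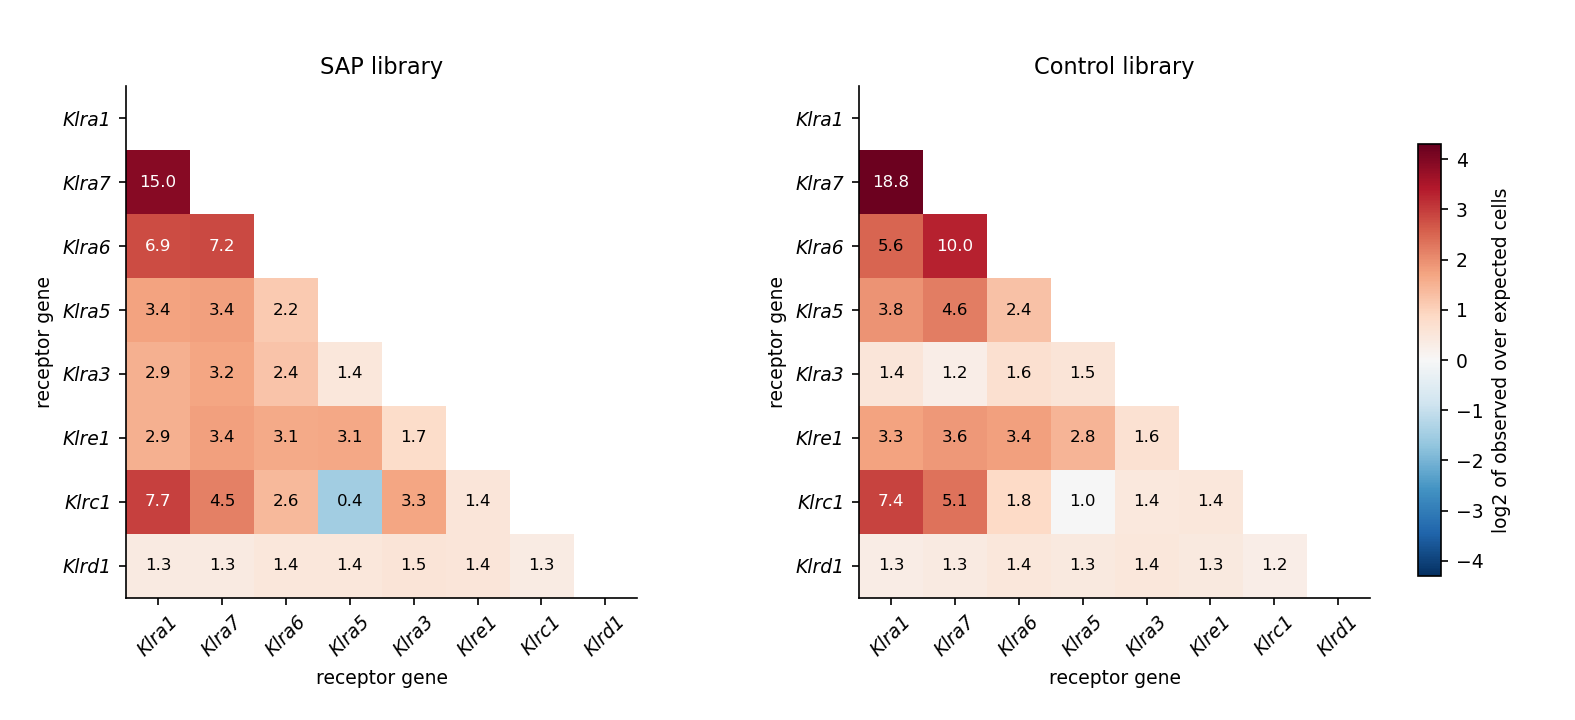
Observed over expected number of cells that held both genes of each pair of receptors, SAP library left and Control library right; the printed number is the ratio and the colour its log2. Klra1 with Klra7 is the darkest square (15.0 times in SAP and 18.8 times in Control), and the Klrd1 row is pale throughout (1.23 to 1.46 times), where values could not pass 1.58.

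Cells with a Ly49 UMI were then compared with all cells of the same depth for every other gene, a likeness measure taken over 591 SAP cells and 655 Control cells. Of 8319 genes, 59 (0.709%) were found in at least 1.5 times the expected number of cells in both libraries and 73 (0.878%) below expectation by the same factor, while the median gene was at 1.04 in SAP and 1.04 in Control. With the expectation taken within the gates 5 genes were at 1.5 times or more: Klre1, Klrb1c, Klrc2, Klrh1 and Frmd5. Klre1 was above that limit, at 2.72 in SAP and 2.59 in Control, and was found in 42.8% of Ly49 cells in SAP and 41.7% in Control. Klrd1 was at 1.39 in SAP and 1.35 in Control, in 87.8% of Ly49 cells in SAP and 87.5% in Control.

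Of the 10 genes with the highest values outside the members, 4 were lectin-like receptor genes. Klrb1c, for the activating receptor NK1.1, was found in 6.09% of Ly49 cells and 1.70% of other cells in SAP and in 6.41% of Ly49 cells and 1.79% of other cells in Control, 2.26 times the expected number in SAP and 2.38 times in Control. Klrh1 was at 2.06 in SAP and 2.23 in Control, Klrb1a at 1.96 in SAP and 2.09 in Control, and Klrc2, for the activating chain NKG2C, at 2.20 in SAP and 1.91 in Control. The other 6 were Frmd5, Dnm3, for a dynamin that acts in membrane fission, Srsf12, Aoah, for an enzyme that trims bacterial lipopolysaccharide, Igha, the heavy chain of IgA, and Sulf2, for an extracellular sulfatase, at 1.80 to 2.38. Igha is a plasma cell gene, found in 10.8% of Ly49 cells and 3.90% of other cells in SAP and in 13.0% of Ly49 cells and 5.24% of other cells in Control. Over the 5 B and plasma cell markers together the Ly49 cells held 45.9 CPM and the other cells 43.1 CPM in SAP, and 69.6 CPM and 252 CPM in Control, and the part of free RNA in the Igha value was not tested. The 6 epithelial markers summed to 147 CPM in Ly49 cells and 116 CPM in other cells in SAP, and to 152 CPM and 90.8 CPM in Control, the 6 dendritic cell and macrophage markers to 99.9 CPM and 72.9 CPM in SAP and to 98.0 CPM and 78.9 CPM in Control, and their part was not tested.

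The genes least often found with Ly49 RNA included Cd5 and Cd28, both known from conventional T cells. Cd5, a brake on T cell receptor signalling, was found in 5 Ly49 cells of SAP where 71.2 were expected and in 6 of Control where 79.9 were expected. Cd28, the co-stimulatory receptor, was found in 5 Ly49 cells of SAP against 50.8 expected and 5 of Control against 52.9 expected. BE692007, Hlf, for a leucine zipper transcription factor, and Ubash3a, for a suppressor of T cell receptor signals, completed the 5 lowest, at 0.00 to 0.15 times in both libraries. Cd5, Cd28 and Hlf were also among the 5 lowest genes for cells with Klrd1 or Klrc1, with Cd40lg and Il18r1. For these 2849 SAP cells and 3293 Control cells, 0.0% of 8321 genes were above 1.5 times in both libraries and 0.565% were below. So many cells were in this group that the highest value a gene could reach had a median of 1.55 in SAP and 1.54 in Control, and nothing is read from the count above 1.5.

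**Figure D5:**
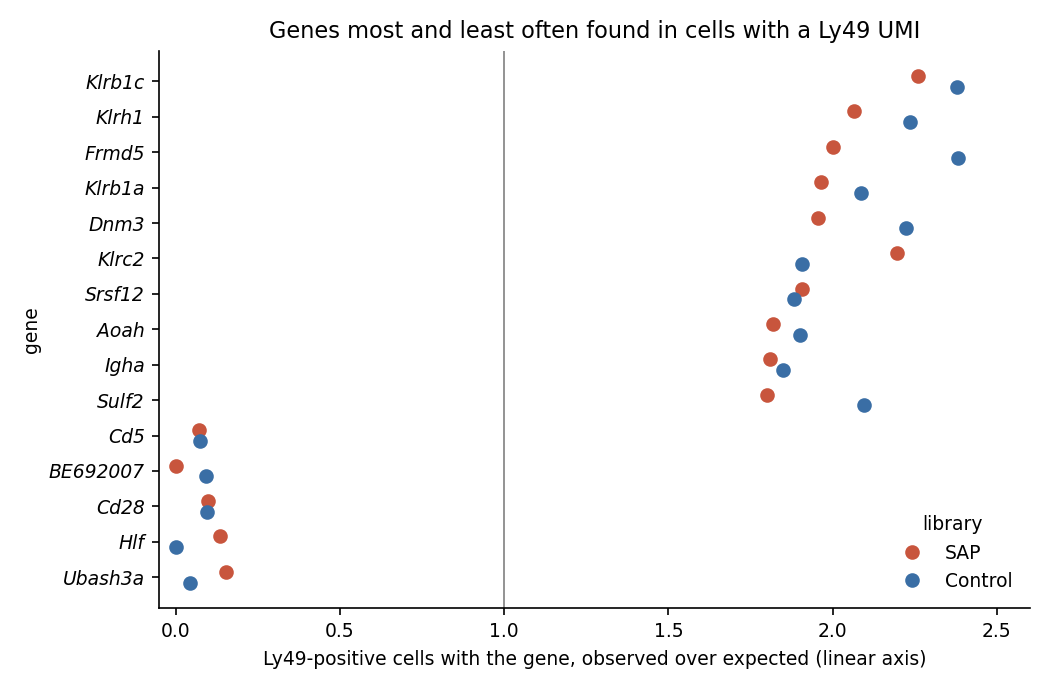
Observed over expected number of Ly49 cells with each gene (linear axis) for the 10 genes found most often and the 5 found least often with a Ly49 UMI, in the SAP and the Control library; the grey line marks 1. Klrb1c is at the top (2.26 in SAP and 2.38 in Control), and Cd5 is at 0.07 in SAP and 0.08 in Control.

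The other genes of the pathway were described by list. The 8 other Ly49 genes and pseudogenes held 0 to 20 UMIs in a library, and 0 of 8 had enough UMIs. Of 11 other lectin-like receptors, 2 had enough UMIs, Klrh1 at 110 CPM in SAP and 125 CPM in Control and Klrb1a at 45.9 CPM in SAP and 40.7 CPM in Control, and 0 were 1.5-fold apart. Among these, 4 of the 5 measured with the Ly49 cells were at 1.5 times or more in both libraries, Klrb1a being at 1.45 in SAP and 1.61 in Control with the expectation within the gates, and the fifth, Klrk1, for the activating receptor NKG2D, was at 1.99 in SAP and 1.26 in Control. Of the 5 ligand genes, 4 had enough UMIs and 0 were 1.5-fold apart. H2-K1 and H2-D1, the classical class I genes, stood at 2083 and 2142 CPM in SAP and at 2373 and 2409 CPM in Control, H2-T23, for Qa-1, at 260 CPM in SAP and 279 CPM in Control, and all 4, with B2m, at 0.99 to 1.08 times with Ly49 cells.

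Of 9 signalling genes, 8 had enough UMIs, 0 were 1.5-fold apart between the libraries, and 2 were found with Ly49 cells at 1.5 times or more in both. These were Tyrobp, for the adaptor DAP12 of activating receptors, at 1.76 in SAP and 1.83 in Control, and Fcer1g, for another adaptor with an activation motif, at 1.51 in SAP and 1.52 in Control. With the expectation within the gates neither reached 1.5 times, Tyrobp being at 1.40 in SAP and 1.48 in Control and Fcer1g at 1.30 in SAP and 1.31 in Control. Ptpn6, for the phosphatase SHP-1 that inhibitory receptors recruit, was at 1.29 in SAP and 1.32 in Control. Of 7 transcription factor and cytokine receptor genes, 5 had enough UMIs and 0 were 1.5-fold apart. Tcf7 is the gene for TCF-1, a factor known from mouse natural killer cells to act on Ly49 genes. Of the 5 genes measured with Ly49 cells it was the 1 below expectation in both libraries, at 0.58 in SAP and 0.43 in Control. It was found in 7.95% of Ly49 cells in SAP and 5.80% in Control. With the expectation within the gates Tcf7 was at 0.74 in SAP and 0.55 in Control. With cells holding Klrd1 or Klrc1 it was likewise low, at 0.51 in SAP and 0.56 in Control. Tbx21 was at 1.17 in SAP and 1.12 in Control. The 7 markers of natural killer and innate lymphoid cells summed to 1447 CPM in Ly49 cells and 1251 CPM in other cells in SAP, and to 1469 CPM and 1250 CPM in Control. Among them Ncr1 was found in 5 of 591 Ly49 cells (0.846%) and 7 of 4235 other cells (0.165%) in SAP and in 0 of 655 Ly49 cells and 4 of 4753 other cells in Control. Eomes was found in 2 SAP and 1 Control Ly49 cells and in 32 SAP and 28 Control other cells. Il7r was found in 3.05% of Ly49 cells and 13.5% of other cells in SAP and in 1.68% and 11.7% in Control. Nkg7 was found in 92.6% of Ly49 cells and 80.1% of other cells in SAP and in 91.5% and 81.7% in Control. For Gata3 the shares were 19.1% and 14.2% in SAP and 17.4% and 12.8% in Control. The markers of this list therefore went both ways. Among Ly49 cells a UMI of Trac, Trbc1 or Trbc2 was found in 97.6% in SAP and 97.7% in Control.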

How the data were processed

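The libraries came from the version 3 of the 3' chemistry of 10x Genomics, as the labels' protocols state. The deposited values are raw UMI counts from Cell Ranger 7.1.0 (per the file headers); mm10 and Seurat appear in the submitters' processing notes. Which filters preceded deposit is not given in the sources used. Barcodes were kept with at least 500 UMIs, 300 genes and at most 10% mitochondrial UMIs. The automatic threshold of Scrublet (scanpy 1.11.5) marked 0 SAP and 1 Control barcodes, so the highest scores were removed instead, 202 in SAP and 257 in Control, at 0.8% per 1000 barcodes. Counts were summed and scaled to CPM with exact Poisson intervals; ratios have exact conditional binomial intervals and shares exact Clopper-Pearson ones. The expected number of cells with several receptors multiplies shares within 10 depth strata of each library, and within fewer strata for some values inside gates. Members, lists and gates were chosen with earlier results of these data known. Named genes were the 8 members, the listed pathway genes and, without mitochondrial, ribosomal, Gm-numbered and Rik genes, the 10 highest and 5 lowest by likeness in both libraries; named pairs were the 5 highest and 3 lowest. Likeness was measured for genes in 2% of cells with 10 expected cells. Ratio and pair steps were tested on simulated data. Scaling by TMM (edgeR 4.0.16) and by median of ratios (DESeq2 1.42.0) was tried without their tests. Other alternatives changed cell filters, doublet removal, depth strata, gates and the UMIs needed for a call.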

Additional observations from a re-analysis of the deposited data

Results flagged for a closer look

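A pair of genes had SAP over Control ratios on opposite sides of 1 in different gates, with counting intervals that did not overlap. These intervals count each UMI as independent, although a cell with Klra1 held 2.16 Klra1 UMIs on average in SAP and 2.64 in Control. Klra1 had a ratio of 1.70 in cells outside the 4 named gates (48 UMIs in 20 SAP cells and 26 UMIs in 12 Control cells) and of 0.678 in the Cd8a only gate (63 UMIs in 33 SAP cells and 98 UMIs in 35 Control cells). By share of cells the Cd8a only gate went the other way, with Klra1 in 2.70% of its SAP cells and 2.39% of its Control cells. Outside the gates Klra1 was in 2.31% of SAP cells and 1.22% of Control cells. Klrd1 had a ratio of 1.09 in the Cd8a only gate, against 0.932 in the Trdc gate, 0.834 in the Cd8b1 gate and 0.820 in cells outside the gates. These values include the Folr1 cells, without which the Klrd1 ratio over all gates was 1.01. The share of cells with Klrd1 was 70.1% in SAP and 69.1% in Control in the Cd8a only gate and 76.2% and 77.9% in the Trdc gate. It was 26.2% and 33.8% in the Cd8b1 gate and 32.5% and 33.5% outside the gates. With 1 library per group these differences between gates were not tested.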

How the results depend on the processing

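Of 419 recomputed values, 346 stayed within the counting interval, or within 1.5 times for counts, and 72 moved. The SAP over Control ratio of Klrd1 reversed, to 1.01, without the Folr1 cells. In 8 more ratios, all with intervals that include 1, the value crossed 1. No paired analysis was possible because there is 1 library per group. Leaving out cells with a Folr1 UMI, an alternative chosen after seeing the data, took the count of genes at least 1.5-fold higher in SAP to 10, and with no filter on low values the counts were 4702 higher and 2055 lower. TMM factors gave 15 lower genes and a Ly49 ratio of 0.930; they moved all log2 ratios by 0.11 and median-of-ratios factors by 0.08. Calling a receptor at 2 UMIs gave 3.57 times in SAP and 3.61 times in Control for 3 or more of the 8 receptors, and 3.06 times in Control for 2 or more Klra genes. Gates that did not exclude each other gave a Ly49 ratio of the Cd8a only over the Trdc gate of 1.85 in SAP and 1.97 in Control. Expectations within the gates left 5 genes found with Ly49 receptors at 1.5 times or more, and calling at 2 UMIs gave 1 gene with CD94-NKG2. Klra5 in the Trdc over the Cd8b1 gate of Control was 8.77, 3.96 with no doublet removal and 21.0 without the cell with the most UMIs. Klra1 with Klra6 at 2 UMIs was 1.31 times in SAP and 2.80 times in Control. The cause was not tested. The 167 SAP cells and 185 Control cells of the Cd4 gate limit what a count of 0 shows there, which allows up to 4.74 CPM in SAP and 4.29 CPM in Control.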
